A study of Homo sapiens with 12 samples.

Results

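The response of CL1-5 cells to a direct-current electric field was followed on 6 of the 12 arrays of the series, 3 arrays of cells exposed to the field and 3 arrays of cells without it. All genes measured on these arrays were taken, and 12588 of the 19775 genes with a probe set of a single gene symbol passed the filter on low signal and were tested. CL1-5 is an invasive subline of CL1-0, and both are established human lung adenocarcinoma lines, so the replicates are cultures of 1 line and not different donors. In the field group, CL1-5 cells were held at 300 mV/mm for 2 h. In the no-field group, CL1-5 cells were kept for the same 2 h at 0 mV/mm. Both groups had grown overnight with serum in a microfluidic chip, were in serum-free medium during the exposure and were detached with trypsin, so these steps are common to field and no-field cells. The other 6 arrays hold CL1-0 cells, 3 at 300 mV/mm and 3 at 0 mV/mm for 2 h, and serve only to show where CL1-5 differs. The labels call the arrays biological replicates but do not say how the cultures were separated, so the p-values measure the spread between these samples.

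Signals were MAS5 intensities, given below as log2 values, and a change is the field value minus the no-field value of the same replicate number on that scale. The mean array median was 6.05. Of the epithelial and subline markers, KRT18 (mean 14.12) and KRT8 (11.69), keratins of simple epithelium, and VIM (15.35), the mesenchymal intermediate filament, were far above it. SNAI2, a transcription factor of epithelial-mesenchymal transition, was at 13.27, and the secreted proteases PLAU and MMP1 were at 14.60 and 13.96. EPCAM (5.02), KRT19 (2.37) and CDH1 (5.83), which mark well-formed epithelium, lay below the array median on average, and EPCAM and KRT19 did not pass the filter. Other epithelial genes, KRT7 (7.32), MUC1 (8.80) and DSP (13.11), lay above it. Of the 18 epithelial markers with a probe set, 10 passed the filter. Of the defining markers of other cells, PTPRC (4.79), CD14 (3.05), COL3A1 (4.23), LUM (3.97), CDH5 (3.73) and VWF (3.82) were below the array median, while PECAM1 (9.87), COL1A1 (7.89), KDR (6.66) and CD3E (6.08) were above it. SPINT2, the gene of a membrane-associated inhibitor of serine proteases, read 5.79, 5.98 and 5.61 without field and 3.89, 4.22 and 4.71 with field. Its groups did not overlap, but all 6 values lay below the array median, so it did not pass the filter and was not tested.

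The 2 arrays numbered replicate 1 stood apart from the other 4. The dap spike-in control read 2.42 and 8.59 intensity units on them and 1644 to 2334 on the others, and the 18S rRNA control read 67.2 and 88.0 against 5577 to 7200. Within that number the field array stood apart again, with an ACTB 3' to 5' ratio of 1.54 against 1.23 to 1.32 on the other 5 arrays, a GAPDH signal of 86956 against 35448 to 56726, and 45 values under 1 unit against 274 to 415. Pair 1 also had the widest spread, with a median absolute change of 0.36 over all genes, against 0.22 in pair 2 and 0.25 in pair 3. No label names a batch, and the part of these differences in the results was not tested. The main values are therefore given by pair and, where they differ, without replicate 1.

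Cells in a steady electric field can move along it, a behaviour called electrotaxis or galvanotaxis, in which receptor tyrosine kinases, ion channels and PI3K signalling are known to take part. Among the genes with the smallest p in CL1-5 were targets of hypoxia-inducible factor (HIF). HIF is a dimer of an unstable alpha subunit and a stable beta subunit: prolyl hydroxylases mark the alpha subunit for destruction while oxygen is present, and when it is stabilised the dimer binds the core sequences ACGTG or GCGTG and raises transcription of genes for glycolysis, angiogenesis and collagen modification. Growth factor signalling and reactive oxygen species are also known to raise HIF activity. The 250 bases before the RefSeq start site (GRCh38.p14) are shown for the 5 members of the hypoxia list with the smallest p that have such a window, because these genes carry the pattern described below. Capitals mark every ACGTG or GCGTG core on either strand, so that a core on the opposite strand reads CACGT or CACGC. Each run is written along the strand of the gene. The windows lie at chr11:10304823-10305072 (plus strand) for ADM, chr10:72273674-72273923 (plus) for DDIT4, chr4:185396591-185396840 (plus) for ANKRD37, chr2:86441121-86441370 (plus) for KDM3A and chr5:122078260-122078509 (minus) for LOX.
ADM: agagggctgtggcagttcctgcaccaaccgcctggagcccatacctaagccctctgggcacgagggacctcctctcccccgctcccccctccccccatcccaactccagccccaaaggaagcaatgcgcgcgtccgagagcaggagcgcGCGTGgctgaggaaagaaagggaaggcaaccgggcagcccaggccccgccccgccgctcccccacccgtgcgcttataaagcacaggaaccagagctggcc
DDIT4: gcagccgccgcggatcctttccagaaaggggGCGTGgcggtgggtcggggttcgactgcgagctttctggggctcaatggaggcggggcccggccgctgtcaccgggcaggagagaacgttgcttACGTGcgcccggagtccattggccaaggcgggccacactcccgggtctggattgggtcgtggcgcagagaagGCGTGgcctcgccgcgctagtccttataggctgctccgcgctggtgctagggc
ANKRD37: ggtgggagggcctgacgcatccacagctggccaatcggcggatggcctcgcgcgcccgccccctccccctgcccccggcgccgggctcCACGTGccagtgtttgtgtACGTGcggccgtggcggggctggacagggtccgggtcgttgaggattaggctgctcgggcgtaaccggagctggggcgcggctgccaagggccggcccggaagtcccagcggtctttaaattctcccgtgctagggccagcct
KDM3A: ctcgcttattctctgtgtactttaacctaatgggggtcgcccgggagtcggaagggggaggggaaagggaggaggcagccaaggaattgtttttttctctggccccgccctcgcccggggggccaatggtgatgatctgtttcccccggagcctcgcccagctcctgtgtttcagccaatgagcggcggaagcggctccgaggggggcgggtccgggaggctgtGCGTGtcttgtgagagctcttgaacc
LOX: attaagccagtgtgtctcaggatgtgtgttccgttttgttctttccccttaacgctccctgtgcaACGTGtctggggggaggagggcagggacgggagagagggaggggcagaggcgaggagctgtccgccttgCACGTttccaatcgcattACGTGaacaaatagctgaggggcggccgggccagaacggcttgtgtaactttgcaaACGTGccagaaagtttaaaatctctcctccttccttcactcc
ADM and KDM3A hold 1 core each, the first base of which lies 101 and 26 bases before the start. DDIT4 holds 3 cores, and LOX holds 4. ANKRD37 holds a palindromic CACGTG, which counts once on each strand, and 1 further core. Of the 32 hypoxia-list genes with a window, 23 (71.9%) held at least 1 core, against 5858 of 10247 tested genes with a window (57.2%) and 11763 of all 27305 genes with a window (43.1%). For genes with several listed starts only the first was searched. A core is a match of 5 letters and not a binding site.

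Over all genes, no response to the field passed the test. In limma's paired fit with the replicate number as block, 0 of 12588 genes (0%) had a Benjamini-Hochberg adjusted p under 0.05, and the smallest was 0.778. At an unadjusted p under 0.05 there were 787 genes, 394 with a higher (3.13%) and 393 with a lower (3.12%) signal in the field. Changes of the same direction in all 3 pairs were found for 1873 genes upward (14.9%) and 1829 downward (14.5%). All 3 field arrays lay above all 3 no-field arrays for 404 genes (3.21%) and below them for 297 genes (2.36%). The median standard error of a change was 0.21, over 3 pairs. This and each ± value below is limma's moderated standard error (SE), which also draws on the spread of other genes. It can be larger or smaller than the spread of a gene's own 3 pairs gives. What follows describes the genes ranked by p and the lists by their counts, and none of these genes passed the test over all genes.

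**Figure D1:**
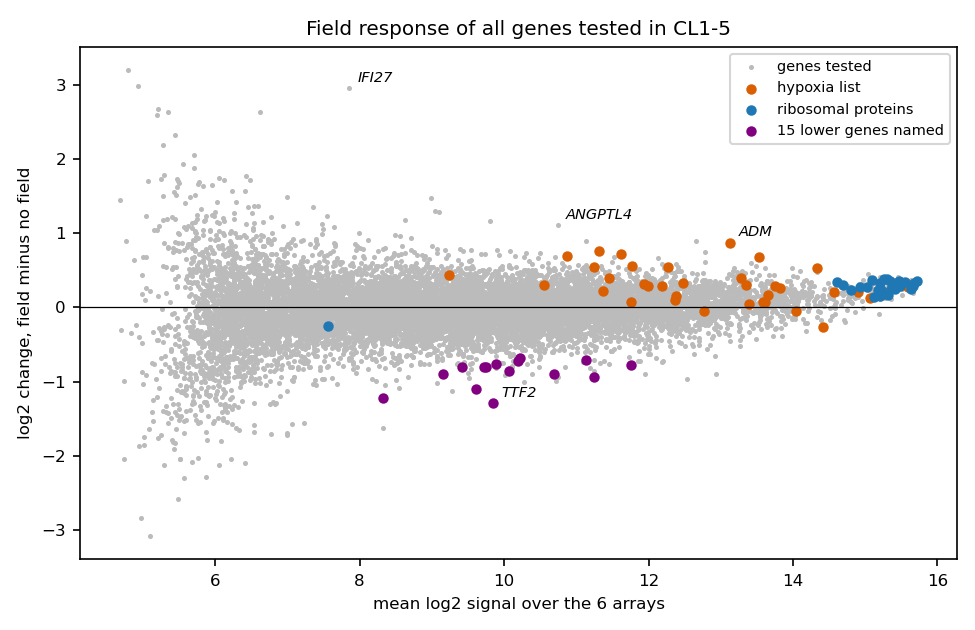
Change in the field (log2, field minus no field, vertical axis) against mean log2 signal over the 6 CL1-5 arrays (horizontal axis), 1 point for each of the 12588 genes tested. Members of the hypoxia list sit mostly above 0 between signals of 9 and 16, the ribosomal protein genes form a group at the bright end with a median of 0.29, and the 15 lower genes named in the text sit between -1.29 and -0.68.

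The hypoxia list held 37 tested genes, of which 34 had a change above 0, against 49.6% of all genes tested. The median change was 0.28, against -0.0028 over all genes. It was above 0 in each pair, at 0.23, 0.42 and 0.27, and 20 of the 37 were higher in all 3 pairs (14.9% of all genes were), with none lower in all 3. With quantile normalization 27 of the 37 were above 0 with a median of 0.22, and the pair 1 median turned to -0.09, against 0.35 and 0.28 in pairs 2 and 3. At an unadjusted p under 0.05 there were 12 higher members (3.13% of all genes) and 0 lower members. None of the 37 passed the adjusted test, and none had field arrays that all lay above the no-field arrays. The no-field arrays themselves differed more than field from no field: no-field replicate 1 was the highest of the 3 for 31 of the 37 genes and no-field replicate 2 the lowest for 35, with a median range of 0.94. The list had been written with earlier results of these data known, so its counts are a description.

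ADM, the gene of adrenomedullin, a secreted vasodilator peptide, had the smallest p of the higher genes. Its signal without field was 13.60, 12.10 and 12.37 in replicates 1, 2 and 3, and with field it was 14.48, 12.88 and 13.34. Each field array was above its own partner by a similar amount, although the groups overlapped because both replicate 1 arrays were the highest. The change was 0.87 ± 0.13 (moderated SE, n = 3 pairs), a 1.83-fold difference, with an adjusted p of 0.778 in limma. DDIT4, an inhibitor of mTORC1 that is induced by hypoxia and other stresses, read 13.69, 12.99 and 12.90 without field and 14.49, 13.36 and 13.76 with field, a change of 0.68 ± 0.15. The DDIT4 field arrays were above all no-field arrays in 2 of 3 cases, and field replicate 2 lay below no-field replicate 1.

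HILPDA, a lipid droplet protein that inhibits lipolysis, read 12.17, 10.49 and 11.14 without field and 12.66, 11.53 and 11.75 with field, a change of 0.72 ± 0.17. ANKRD37, a small ankyrin repeat protein, read 11.74, 10.35 and 10.70 without field and 12.51, 10.61 and 11.94 with field. Its change of 0.76 ± 0.21 was made mostly of pairs 1 and 3 (0.77 and 1.24), against 0.26 in pair 2. NDRG1, a stress-responsive growth regulator, differed by 0.23, 0.97 and 0.41 in the 3 pairs, KDM3A, a histone H3 lysine demethylase, by 0.39, 0.90 and 0.38, and LOX, the collagen cross-linking lysyl oxidase, by 0.47, 0.93 and 0.24. On the probe sets used, pair 2 gave the largest difference in these 3 genes. Further LOX sets were higher in the mean, at 0.53 and 0.36, but read -0.07 and -0.28 in pair 3. The collagen prolyl hydroxylase subunit P4HA2 differed by 0.57, 0.30 and 0.30, and VEGFA, the angiogenic growth factor, by 0.06, 0.10 and 0.74, so that the VEGFA change of 0.30 ± 0.17 came mainly from pair 3.

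**Figure D2:**
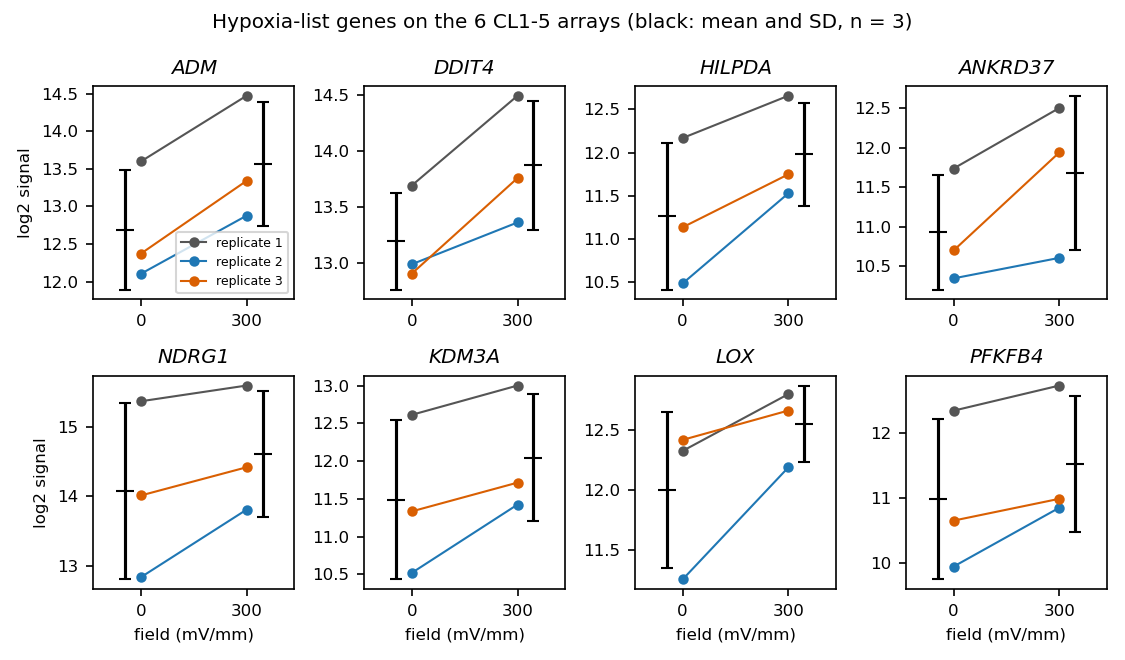
Log2 signal of the 8 hypoxia-list genes with the smallest p on the 6 CL1-5 arrays at 0 and 300 mV/mm, lines joining the arrays of 1 replicate number, black marks giving the mean and SD (n = 3). Every line of the 8 genes slopes upward, while the replicate 1 arrays lie above the others for most genes and the SD bars of the 2 groups overlap.

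The members divide by role, in a split made after their values were seen. The 18 regulators, secreted factors and matrix enzymes all had a change above 0, with a median of 0.36 and pair medians of 0.37, 0.47 and 0.30. The 19 genes of glycolysis and glucose handling had a median of 0.17, with 16 above 0 and pair medians of -0.03, 0.25 and 0.13. The glucose transporters SLC2A3 and SLC2A1 differed by 0.69 ± 0.25 and 0.40 ± 0.20, and the regulator of glycolytic flux PFKFB4 by 0.54 ± 0.18. The bright probe sets of the enzymes differed by less, with GAPDH at 0.28 ± 0.11, ENO1 at 0.23 ± 0.11, ALDOA at 0.21 ± 0.11, LDHA at 0.17 ± 0.11 and PGK1 at 0.13 ± 0.11. TPI1 was lower by -0.26 ± 0.20, with a pair 1 difference of -0.95 against 0.18 and -0.02 in the other pairs.

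The enzymes lie in the bright part of the signal range, where field replicate 1 read higher than its partner for genes in general. Among the 1259 genes with the brightest signal, the median change in pair 1 was 0.16, against -0.19 among the 1259 dimmest. With quantile normalization, which gives all arrays 1 distribution, the brightest genes had a pair 1 median of 0.02. The glycolysis members then had a median of 0.05, with 10 of 19 above 0, 1 higher in all 3 pairs and pair medians of -0.22, 0.19 and -0.02, and ALDOA moved to -0.01. The regulators and secreted factors kept a median of 0.31, with 17 of 18 above 0, 11 higher in all 3 pairs and pair medians of 0.25, 0.44 and 0.31, and ADM differed by 0.57, 0.73 and 0.99 in the 3 pairs. Without replicate 1, all 37 members had a change above 0, with a median of 0.31, and without replicates 2 and 3 in turn 28 and 32 did, with medians of 0.21 and 0.30.

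Of the other 12 higher genes named by rank, several are also known to be raised by low oxygen or nutrient stress although they were not on the list. ANGPTL4, a secreted inhibitor of lipoprotein lipase, read 12.05, 8.28 and 10.24 without field and 12.46, 9.91 and 11.52 with field. Its change of 1.11 ± 0.24 was the greatest of the 15, and its no-field arrays spanned a wider range than the change. STC2, a secreted glycoprotein of the integrated stress response, differed by 0.48, 0.70 and 0.87 in the 3 pairs, and RORA, a nuclear receptor, by 0.65, 1.02 and 0.64. MMP9, a secreted gelatinase that degrades basement membrane collagen, read 10.47, 9.22 and 9.40 without field and 11.32, 9.83 and 10.22 with field. Its change was 0.76 ± 0.17, similar in each pair, and the groups overlapped.

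Of the 15 higher genes, which had been picked by p and by direction in the pairs, 5 had field arrays that all lay above the no-field arrays (3.21% of all genes did), namely PODXL, NBR2, RASSF8-AS1, PIAS2 and WNT5A. PODXL, a sialomucin of the cell surface that lowers adhesion, read 12.39, 12.25 and 11.997 without field and 13.54, 12.57 and 13.21 with field, a change of 0.90 ± 0.19. WNT5A, a ligand of non-canonical Wnt signalling in cell polarity and movement, read 10.998, 11.21 and 11.37 without field and 11.84, 11.66 and 11.92 with field, a change of 0.62 ± 0.16. A further WNT5A probe set gave 0.13. PIAS2, a SUMO ligase, read 9.49, 9.20 and 9.44 without field and 10.37, 10.09 and 9.84 with field, while its other probe sets ranged from -0.30 to 0.31. NBR2 and RASSF8-AS1, both long non-coding RNAs, differed by 0.98 ± 0.23 and 1.01 ± 0.24. SOCS2, an inhibitor of cytokine signalling, and DPYSL4, of the collapsin response mediator family, differed by 0.67 ± 0.17 and 0.73 ± 0.19, and the uncharacterised LOC105376805 by 0.68 ± 0.17. Further probe sets of SOCS2, DPYSL4 and ANGPTL4 were higher in the mean, at 0.33, 0.50 and 0.90. In pair 1 they read -0.33, -0.14 and -0.10.

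The 15 lower genes named by rank had changes from -1.29 to -0.68, and they belonged to no 1 pathway on the lists. TTF2, a helicase-like factor that releases RNA polymerase II from DNA, had the smallest p of all genes. It read 8.90, 11.75 and 10.84 without field and 7.28, 10.50 and 9.84 with field, a change of -1.29 ± 0.19. The field array was the lower one in each pair, yet replicate 1 lay so far below the others that the groups overlapped, and the other TTF2 probe set gave 0.22. COX3, a mitochondrially encoded subunit of cytochrome c oxidase, read 10.82, 12.82 and 12.80 without field and 9.84, 12.16 and 12.10 with field, a change of -0.78 ± 0.16.

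Among the lower genes, U2AF2, B4GALT6 and KDM1B had field arrays that all lay below the no-field arrays (2.36% of all genes did). U2AF2, which recognises the polypyrimidine tract in splicing, read 11.41, 12.03 and 11.69 without field and 9.82, 11.39 and 11.09 with field. B4GALT6, the lactosylceramide synthase, read 9.86, 9.64 and 9.94 without field and 8.75, 9.06 and 9.22 with field, and KDM1B, a histone lysine demethylase, differed by -0.90 ± 0.23. CENPK, a kinetochore subunit, differed by -0.85 ± 0.19, ZNF367, a zinc finger factor, by -1.11 ± 0.28, and FLVCR1, a choline and haem transporter, by -0.72 ± 0.19. SLC35F5, of a family of solute carriers, read 10.14, 11.55 and 11.72 without field and 8.63, 10.92 and 11.16 with field, a change of -0.89 ± 0.22. Of the metabolic genes, HIBCH, of valine breakdown, was at -0.68 ± 0.18, YARS2, the mitochondrial tyrosyl-tRNA synthetase, at -0.80 ± 0.20, and PM20D2, a peptidase, at -0.76 ± 0.19. The probe sets of PREPL, MOB3B and PHTF2 disagreed: their chosen sets gave -0.81, -1.22 and -0.71, and their others ranged from -0.20 to -0.03, from -1.74 to 0.03 and from -0.23 to 0.40. Further B4GALT6 sets were lower in the mean, at -0.51 and -0.58, but read 0.03 and 0.29 in pair 3. A further KDM1B set gave -0.73, with 0.85 in pair 2. Pair 1 held the greatest difference in 12 of the 15 lower genes, against 2 of the 15 higher genes, and the no-field replicate 1 array was the lowest no-field array for 14 of the 15 lower genes. All 30 genes kept their direction in all 3 pairs with quantile normalization.

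In the mean over the pairs, most genes of the cell cycle read lower in the field, but the single pairs had unlike patterns. In RNA of whole cultures, fewer cells in a phase and less of a transcript per cell cannot be told apart. The list of G1/S and DNA replication genes had a median change of -0.23, with 34 of 37 members below 0 (50.4% of all genes were) and 18 lower in all 3 pairs (14.5% of all genes). Its pair medians were -0.02, -0.24 and -0.38, and without replicate 1 the median was -0.34 with all 37 below 0, and without replicate 3 it was -0.11. CCNE2, the cyclin E2 that drives entry into S phase, read 9.93, 11.75 and 10.86 without field and 9.10, 11.12 and 10.63 with field, a change of -0.57 ± 0.18. MCM7, a subunit of the replicative helicase, differed by -0.30, -0.34 and -0.65, UHRF1, which maintains DNA methylation at replication, by -0.47, -0.24 and -0.55, and CDC6, which loads the helicase, by -0.17, -0.47 and -0.53. A further MCM7 probe set gave 0.28 in pair 1, with a change of -0.15. None of these passed the adjusted test, and their groups overlapped.

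For genes of G2 phase and mitosis the median change was -0.25, and 38 of 40 members were below 0. This came from pair 3, in which all 40 were below 0 with a median of -0.96, while the medians of pairs 1 and 2 were 0.13 and 0.17. Without replicate 3 the list median was 0.14, with 27 of 40 above 0. On the arrays, the list was relatively high on no-field replicate 3, at 0.47 above each gene's mean in the median, and low on field replicate 3, at -0.48. ANLN, a scaffold of the cytokinetic ring, differed by -0.88, -0.01 and -0.97, ECT2, the activator of RhoA in cytokinesis, by -1.31, 0.01 and -0.71, and MAD2L1, of the spindle checkpoint, by -0.72, -0.11 and -0.53. Other probe sets disagreed in pair 1, where a further ANLN set gave 0.46 and a further MAD2L1 set 0.40. In pair 1, 23 of the 40 members were above 0, unlike these 3 genes, and in pair 2, 31 of the 40 were.

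**Figure D3:**
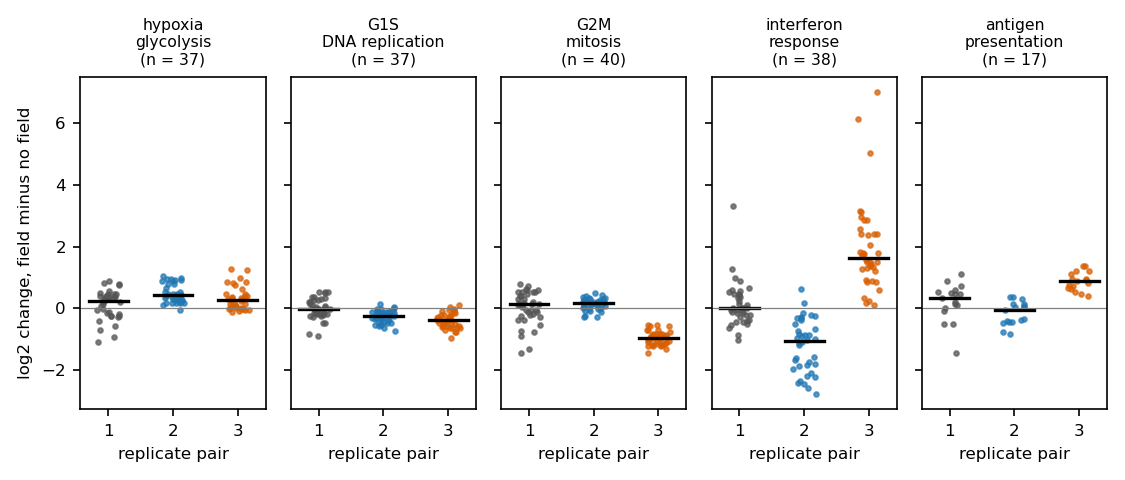
Change in each replicate pair (log2, field minus no field) for the members of 5 gene lists, 1 point per gene, with black bars at the medians. The hypoxia members lie mostly above 0 in each pair, the G2/M members lie below 0 in pair 3 (median -0.96), and the interferon members run opposite ways in pairs 2 and 3 (medians -1.07 and 1.64).

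Interferon-response genes showed no common direction. The list had a median of 0.17 with 27 of 38 members above 0, and its pair medians were 0.00, -1.07 and 1.64. Its median was 0.81 without replicate 2 and -0.53 without replicate 3. The no-field arrays themselves differed: list members were 2.21 higher, in the median, on no-field replicate 2 than on no-field replicate 3. No-field replicate 2 was the highest of all 6 arrays for 26 of the 38, and no-field replicate 3 the lowest for 24. MX1, an antiviral GTPase, differed by 0.00, -2.78 and 2.87, and IFIT1, which binds viral RNA, by -0.85, -2.34 and 2.39. IFI27, an interferon-induced mitochondrial protein, read 7.81, 8.61 and 2.69 without field and 9.09, 9.22 and 9.69 with field. All its field arrays lay above all its no-field arrays, and its change of 2.96 ± 0.999 rested largely on the single low reading of no-field replicate 3. The pair differences of IFI27 were 1.28, 0.61 and 6.99.

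Antigen presentation genes were higher on average, with 16 of 17 members above 0, a median of 0.36 and pair medians of 0.33, -0.04 and 0.87. Without replicate 3 the median was 0.085, and without replicate 2 it was 0.61. The 5 class I heavy chain genes, whose products carry peptides to the cell surface, were all above 0, between 0.34 and 0.66. HLA-F read 12.28, 11.80 and 11.33 without field and 12.77, 12.09 and 12.54 with field, a change of 0.66 ± 0.20, and the other HLA-F probe sets gave 0.03 and 0.29. B2M, the invariant light chain of class I, read 14.51, 14.83 and 14.54 without field and 14.84, 14.89 and 14.99 with field, so that its groups did not overlap and the change was 0.28 ± 0.13. With quantile normalization B2M differed by 0.09, -0.15 and 0.39, a mean of 0.11, so its pairs no longer shared a direction. As with the interferon genes, the list was low on no-field replicate 3, at -0.61 below each gene's mean in the median. Probes of class I genes can share sequence, so their values are not fully separate.

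Ribosomal protein genes were higher in the field in the deposited scale, and this was kept with median centring but not with quantile normalization. On the deposited scale 26 of 27 members were above 0, with a median of 0.29, and 25 were higher in all 3 pairs, while the pair medians were 0.52, 0.21 and 0.13. Centring the arrays on their median left 26 of 27 members above 0, with a median of 0.315. With quantile normalization the median was 0.02, with 15 of 27 above 0. RPS19, of the small subunit, read 16.02, 15.30 and 15.30 without field and 16.67, 15.52 and 15.51 with field, and its change of 0.36 ± 0.12 became 0.05. Genes of oxidative phosphorylation had 26 of 30 members above 0, a median of 0.16 and pair medians of 0.25, 0.13 and 0.04, and COX4I1, a nuclear-encoded subunit of the same enzyme as COX3, differed by 0.29 ± 0.14. With quantile normalization this list had 23 of 30 above 0, a median of 0.07 and a pair 3 median of -0.0028, and without replicate 1 its median was 0.09. Proteasome genes had 21 of 23 members above 0 and a median of 0.14, with pair medians of 0.34, 0.12 and -0.10. Without replicate 1 the proteasome list had 8 of 23 members above 0 and a median of -0.03, and the ribosomal list had a median of 0.18. With quantile normalization the proteasome list had 13 of 23 above 0 and a median of 0.04.

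**Figure D4:**
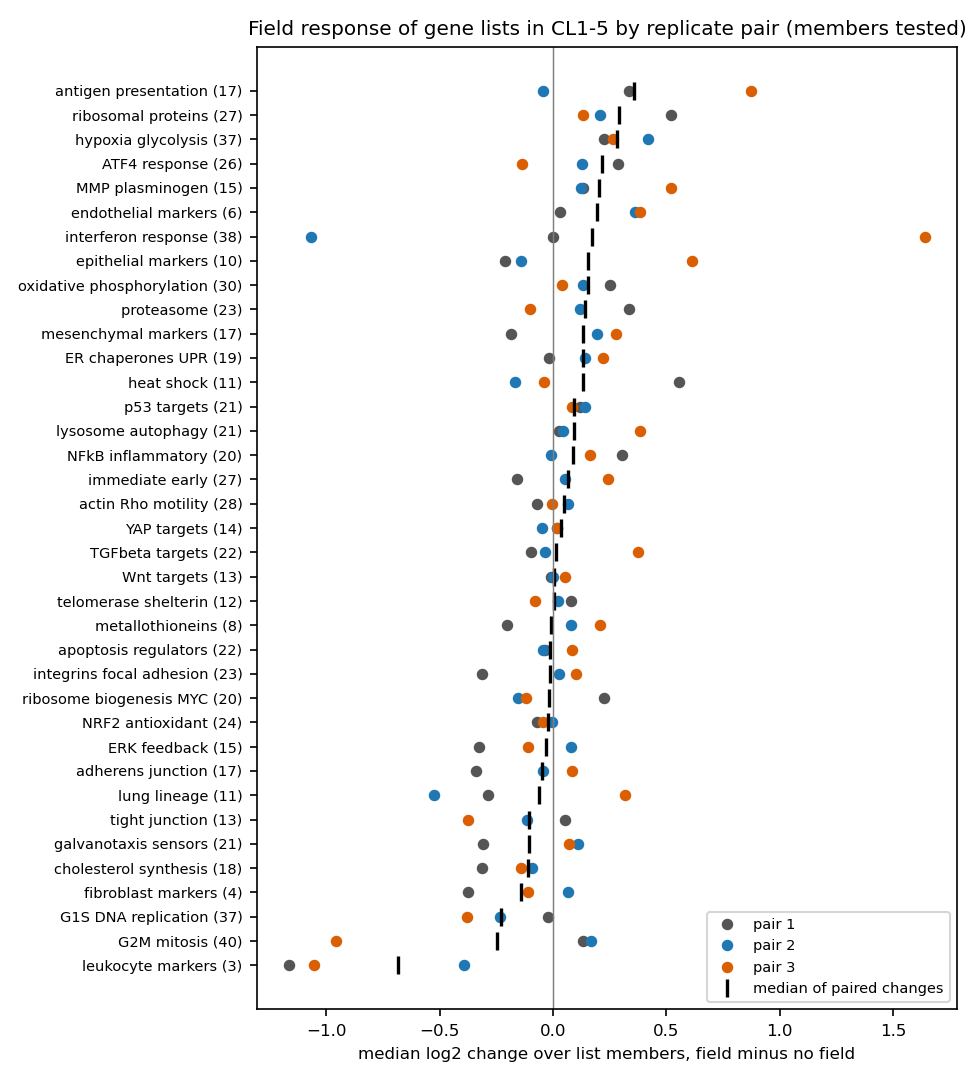
Median log2 change over the members of each of the 37 gene lists, in each replicate pair (coloured points) and over the paired changes (black marks), with the number of members tested in brackets. For 11 lists the 3 pair medians share a sign, 7 upward and 4 downward, and the interferon and G2/M lists have the pairs furthest apart. Of single genes, 14.9% were higher and 14.5% lower in all 3 pairs, so nothing is read from the number of such lists.

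Genes of matrix breakdown were higher as a group by small amounts. Of the 15 matrix metalloproteinase and plasminogen genes tested, 14 were above 0, with a median of 0.20 and pair medians of 0.13, 0.12 and 0.52. The median was 0.41 without replicate 2 and 0.014 without replicate 3. Beside MMP9, MMP1, an interstitial collagenase, read 13.58, 13.90 and 13.86 without field and 14.02, 14.02 and 14.38 with field, a change of 0.36 ± 0.13 with no overlap of the groups. MMP2, the other gelatinase, differed by 0.62 ± 0.27. PLAU, the urokinase activator of plasminogen, differed by 0.48, 0.01 and 0.16. Its other probe set gave -0.13, with -0.58 in pair 1. With quantile normalization PLAU differed by 0.06.

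Among genes known to sense or carry direct-current fields, 7 of 21 were above 0, with a median of -0.11, which was 0.0072 without replicate 1. PANX1, a channel that releases ATP, read 10.44, 10.41 and 10.79 without field and 11.15, 10.88 and 11.16 with field, a change of 0.52 ± 0.17, while its other probe sets gave 0.22, 0.13 and -0.14. KCNK5, a potassium channel of the background type, read 8.70, 8.13 and 7.75 without field and 7.47, 7.61 and 7.44 with field, a change of -0.69 ± 0.27. On the probe sets used, the PANX1 field group lay wholly above and the KCNK5 field group wholly below the no-field group. EGFR, the growth factor receptor that polarises toward the cathode in many epithelial cells, differed by 0.25, 0.40 and 0.45, and its groups overlapped. The other EGFR probe sets gave changes from -0.04 to 0.56, and none of them was higher in every pair. The remaining members, among them PIEZO1, TRPM7, ERBB2 and AKT1, differed by 0.12, -0.22, -0.11 and -0.02.

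Adhesion genes had no common direction. The adherens junction list had a median of -0.05 and the tight junction list -0.11, and the integrin and focal adhesion list -0.01, and all 3 turned sign in at least 1 of the fits that left out a replicate. Single genes stood out within them. NECTIN1, an adhesion receptor of adherens junctions, read 8.12, 7.66 and 7.85 without field and 7.08, 6.46 and 6.98 with field, a change of -1.04 ± 0.28 with no overlap. ITGA6, an integrin alpha chain that binds laminin, read 12.61, 12.20 and 12.37 without field and 10.74, 11.69 and 12.06 with field, a change of -0.89 ± 0.28, with a pair 1 difference of -1.87 against -0.50 and -0.31. ITGB5, an integrin beta chain that binds vitronectin, differed by 0.97, 0.38 and 0.45. ITGA6 and ITGB5, named for their small p, had field and no-field arrays that did not overlap, in opposite directions. Of the 11 integrins tested, 1 was so separated upward and 1 downward (3.21% and 2.36% of all genes were). Further ITGB5 probe sets were higher in the mean, at 0.46 and 0.27, but the first read -0.73 in pair 2. CDH1, at or near the array median, differed by -0.996, -1.12 and 2.51, and no direction can be read from it.

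Immediate early genes, which respond within minutes to growth factors and stress, had 18 of 27 members above 0 and a median of 0.06, which was 0.26 without replicate 1. KLF10, a zinc finger factor induced by TGF-beta, read 12.84, 12.86 and 13.06 without field and 13.19, 13.31 and 13.74 with field, a change of 0.49 ± 0.14 with no overlap. KLF2, a related factor known for its response to shear stress, read 8.96, 9.12 and 9.36 without field and 8.52, 8.42 and 8.67 with field, a change of -0.61 ± 0.19, also with no overlap, while its other probe set gave -0.06, with pairs at 0.45, -0.80 and 0.17. IER3 and the phosphatase DUSP1 differed by 0.44 ± 0.12 and 0.47 ± 0.16, and IER3 by 0.21 with quantile normalization. The TGF-beta targets had a median of 0.01, which was 0.21 without replicate 1, 0.17 without replicate 2 and -0.05 without replicate 3. Among them were ID1, an inhibitor of differentiation factors, at 0.32, 0.39 and 0.39 in the 3 pairs and SMAD7, the feedback inhibitor, at 0.50, 0.75 and 1.30. EPHA2, a receptor of ephrins, differed by -0.48, -0.62 and -0.61, while DUSP6, a phosphatase induced by ERK, differed by -1.10, 0.33 and -0.54.

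Cholesterol synthesis genes had 14 of 18 members below 0, a median of -0.11 and pair medians of -0.32, -0.09 and -0.14. SQLE, which makes squalene epoxide, read 12.60, 12.68 and 12.68 without field and 12.14, 12.31 and 12.34 with field, a change of -0.39 ± 0.14 with no overlap. Genes of the ATF4 response had a median of 0.21, with 15 of 26 above 0 and pair medians of 0.28, 0.13 and -0.14, and the median was 0.09 without replicate 1 and 0.125 without replicate 2. ASNS, asparagine synthetase, differed by 0.76, 0.88 and -0.18. NRF2 targets had a median of -0.02: GCLM, the modifier subunit of glutathione synthesis, was lower on all field arrays by -0.72 ± 0.20, and AKR1C1, an aldo-keto reductase, differed by 0.81 ± 0.23. Heat shock genes, which proteotoxic stress raises, had pair medians of 0.56, -0.17 and -0.04, and a median of 0.13 that was -0.11 without replicate 1. Of the p53 targets, CDKN1A, the cyclin-dependent kinase inhibitor p21, differed by 0.60, 0.45 and 0.43, and TP53INP1 by 0.12, 1.28 and 1.48. Telomerase and shelterin genes had a median of 0.00, with TERF1, which binds telomeric repeats, at -0.34 ± 0.19, and TERT, the catalytic subunit, which was above the array median on 3 of 6 arrays, at 1.16 ± 0.75. The TERT pairs differed by 0.07, 3.36 and 0.06, so the change rested on no-field replicate 2, which read 3.26.

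Marker lists of other cell types are set beside these results. Of the endothelial markers 6 of 10 exceeded the array median on at least 3 arrays, of the fibroblast markers 4 of 11 and of the leukocyte markers 3 of 12. The leukocyte markers summed to 538 to 690 intensity units without field and 408 to 736 with field, the fibroblast markers to 794 to 927 and 707 to 895, and the endothelial markers to 1900 to 4710 and 2160 to 3310. These ranges overlapped for all 3 lists. The 6 endothelial markers tested had a median change of 0.20 and pair medians of 0.03, 0.36 and 0.38, with 4 above 0, and without replicate 1 all 6 were above 0 with a median of 0.36. KDR and FLT1, receptors of VEGFA, differed by 0.82 ± 0.38 and 0.77 ± 0.25, and their field arrays all lay above their no-field arrays. The 3 leukocyte markers tested had pair medians of -1.17, -0.40 and -1.05, with CD79A, of the B cell receptor, at -1.31 ± 0.45, and the 4 fibroblast markers had pair medians of -0.38, 0.07 and -0.11. The part of these markers in the results was not tested.

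The response of CL1-5 was compared with that of CL1-0 by the interaction of field and line on all 12 arrays. No gene passed (0 of 12588, 0%; limma, smallest adjusted p 0.160), and 932 genes (7.4%) had an unadjusted p under 0.05. All 3 CL1-5 pairs were higher and all 3 CL1-0 pairs lower for 277 genes (2.2%), and the reverse held for 322 (2.56%). All 6 pairs of both lines were higher for 269 genes (2.14%) and lower for 187 (1.49%). The hypoxia list had a median change of 0.08 in CL1-0, with 27 of 37 members above 0, against 0.28 and 34 of 37 in CL1-5. Over all 12588 genes tested, 6574 had a change above 0 in CL1-0, with a median of 0.0088. In CL1-0, ADM differed by 0.08 and ANGPTL4 by 0.14, and the CL1-5 change of these genes was greater by 0.79 and 0.97, with the interaction not past the threshold. Of the 15 higher genes 10 had a change above 0 in CL1-0 too, and of the 15 lower genes 5 had a change below 0. Beside the 6574 of 12588 genes above 0 there, nothing is read from these counts. The smallest p of the interaction belonged to FGF1, a fibroblast growth factor, which differed by -0.38 in CL1-5 and 3.46 in CL1-0, with an adjusted p of 0.160 in limma. Its mean signals in CL1-0, 2.32 without and 5.78 with field, were both below the array median. In CL1-5 the FGF1 pairs differed by -0.79, 0.31 and -0.66, and its other probe sets gave 0.42 and -0.02, so no direction can be read there. B4GALT6, COX3, TTF2 and JAG1, a Notch ligand, followed on the lower side, with CL1-5 minus CL1-0 at -1.46, -1.02, -1.69 and -1.09. On the higher side were PIAS2 (1.18), TFDP2, a partner of E2F factors (0.99), DLGAP4, a scaffold protein (1.04), RAD54L2 (1.17) and the long non-coding RNA PICSAR (2.76), which was also below the array median in CL1-0. The other DLGAP4 probe sets had changes from -0.87 to -0.31 in CL1-5, against 0.69 for the one used, and averaged over its probe sets DLGAP4 read -0.24.

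**Figure D5:**
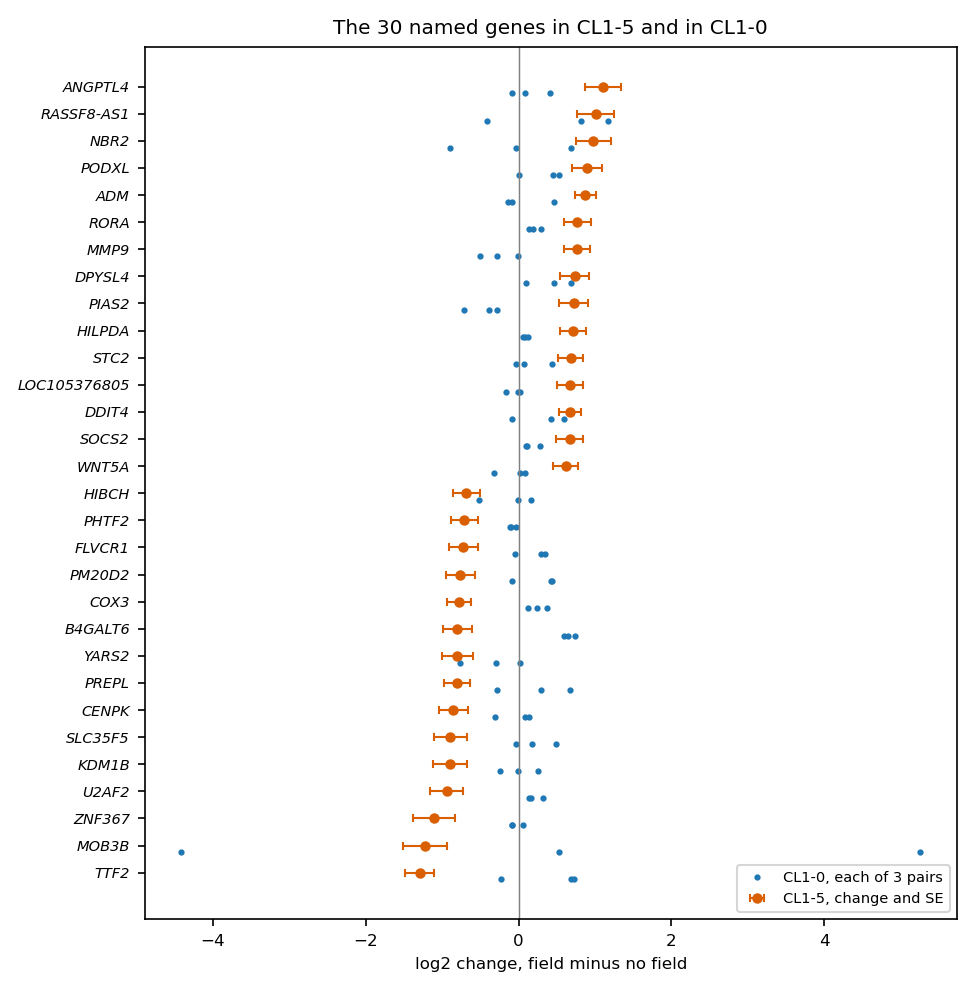
Change in the field (log2, field minus no field) of the 15 higher and 15 lower genes named by rank. CL1-5 is in orange (change and limma's moderated SE, n = 3 pairs) and CL1-0 in blue (each of 3 pairs). ANGPTL4 at 1.11 and TTF2 at -1.29 mark the ends in CL1-5, and the CL1-0 pairs of most genes scatter around 0, those of MOB3B most widely.

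Without replicate 1, the 4 arrays of replicates 2 and 3 gave 0 of 12588 genes past the adjusted threshold (0%; limma), with a smallest adjusted p of 0.351 and 1019 genes at an unadjusted p under 0.05. The hypoxia, G1/S and matrix breakdown lists kept the sign of their medians, at 0.31, -0.34 and 0.29. Most lists did so, among them G2/M at -0.42 and interferon at 0.23, whose pairs ran in different directions. Others, such as the proteasome list at -0.03, turned sign.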

How the data were processed

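Total RNA was labelled as biotin cRNA and hybridised to Affymetrix arrays, 1 array per sample. Values are the MAS5 intensities of the series' value table, which the authors deposited on a linear scale; per the submitters' processing notes MAS5 made them, in a version not given in the sources used here. Their 2% trimmed mean was 500.07 to 500.08 on all 6 arrays, so arrays had been scaled to a common level. Values under 1 (1730 on the 6 arrays) were set to 1 and log2 was taken. Of 54675 probe sets, 41097 had 1 symbol, 1801 several and 11777 none in the platform annotation, and 62 controls were left out. A probe set was kept where it exceeded its own array's median on at least 3 of the 6 CL1-5 arrays, and each gene was represented by the kept probe set with the highest mean, which left 12588 genes. Several entries of the gene lists had no probe set of a single symbol and were not analysed here.

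The paired comparison was a linear model in limma 3.58.1 under R 4.3.3, with moderated variances (eBayes, trend) and the replicate number as a block, and p-values were Benjamini-Hochberg adjusted over all genes. The difference between lines used the interaction of field and line on 12 arrays with the replicate number within each line as block. Deviations of same-numbered CL1-5 arrays from their group means correlated at 0.65, 0.53 and 0.23 for replicates 1, 2 and 3. Replicate 3 correlated more (0.40) with another number. Because both replicate 1 arrays stood apart, arrays of the other numbers share deviations from the group means. The check therefore sets replicate 1 apart but cannot decide how replicates 2 and 3 pair. Their pairing was taken from the numbers in the sample titles. The number of arrays limits the precision. Promoter windows were taken from RefSeq.

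The genes and the 37 lists were chosen with earlier results of these data known. Since fewer than 10 genes passed, the text names the 15 higher and 15 lower genes with the smallest p among those with 1 direction in all 3 pairs and a mean above the mean array median in both groups, up to 4 members of a list by the same measure, and 5 genes per direction from the difference between lines. Members named beyond these were chosen after their values were seen.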

Additional observations from a re-analysis of the deposited data

Results flagged for a closer look

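For 13 of the 106 genes named and tested, all 3 CL1-5 pairs differed one way and all 3 CL1-0 pairs the other. Many of them were named for 1 direction in all CL1-5 pairs or for a small interaction p, so nothing is read from their number; of all genes tested, 2.2% were higher in CL1-5 with lower in CL1-0 and 2.56% the reverse. The difference itself was tested by the interaction of field and line in limma and passed for none of them, with adjusted p between 0.245 and 0.660. The CL1-5 minus CL1-0 values on the higher side were 3.68 for IFI27, 1.18 for PIAS2, 1.17 for RAD54L2, 1.04 for DLGAP4, 1.03 for MMP9, 0.99 for TFDP2, 0.76 for HLA-F, 0.74 for KDM3A and 0.42 for B2M. On the lower side they were -1.54 for NECTIN1, -1.46 for B4GALT6, -1.15 for U2AF2 and -1.02 for COX3. For IFI27 and HLA-F, no-field replicate 3 was the lowest CL1-5 array. With quantile normalization B2M no longer had 1 direction in the CL1-5 pairs, and the other DLGAP4 probe sets ran from -0.87 to -0.31 in CL1-5. NECTIN1, B4GALT6 and U2AF2 also had field and no-field arrays that did not overlap in CL1-5.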

How the results depend on the processing

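No gene passed under any alternative run. Without the replicate block, 0 genes passed (100 at an unadjusted p under 0.05; median SE 0.34), and with the block on all 12 arrays 0 passed (1366 unadjusted). Leaving out 1 replicate gave 0 genes each time (472 to 1019 unadjusted). All probe sets, no filter, a stricter filter, the filter over 12 arrays, a pseudocount, raising low values to the array median, median centring, the average over probe sets, quantile normalization and eBayes without trend also gave 0. The same held for the difference between lines under each alternative run on it. The number of lists with 1 sign in all 3 pairs was 9 to 13, against 11 of 37 in the main run. Nothing is read from it, since 14.9% of all genes were higher and 14.5% lower in all 3 pairs. Of the 106 genes named and tested, 18 reversed in at least 1 setting, none of them past the threshold. With quantile normalization, ALDOA read -0.0135, ENO1 -0.0331, GAPDH -0.0247, KRT8 -0.00459, LDHA -0.0729 and PGK1 -0.112. Averaged over probe sets, ALDOA read -0.0251, DLGAP4 -0.236, ENO1 -0.0634, FGF1 0.00842, PECAM1 -0.0176, PIEZO1 -0.0502 and TRPM7 0.112. With median centring AKT1 read 0.00171, with low values raised CDH1 read -0.184, and with the stricter filter, which left another probe set, MOB3B read 0.0323. Over the fits that left out 1 replicate, AKT1 ran from -0.252 to 0.201, CDH1 from -1.06 to 0.758, IFIT1 from -1.60 to 0.771, KRT8 from -0.156 to 0.159, MX1 from -1.39 to 1.44, SNAI2 from -0.03 to 0.369 and TPI1 from -0.483 to 0.0808. The cause of the other reversals was not tested.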
